A study of Mus musculus with 4 samples.

Results

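The genes described here encode core proteins of the spliceosome and the SR family of splicing regulators in mouse morulae. They are the 44 genes, of 24411 listed, whose symbols begin with Sf3a, Sf3b, Snrp, Prpf or Srsf, with Snrpn left out. By symbol they fall into 9 SF3A and SF3B subunits, 11 Snrp proteins of the small nuclear ribonucleoproteins (snRNPs), 13 PRPF factors and 11 SR proteins. RNA was sequenced from in vitro fertilized embryos of the ICR strain, an outbred stock, that had been electroporated at 3 hpi with siRNA against Pwp1 (siPwp1, 2 libraries) or with control siRNA (siControl, 2 libraries). Both groups were grown in KSOM medium with serum albumin and collected as morulae at 72 hpi, and each library pooled 10 embryos. The labels do not say whether the 2 libraries of a group came from separate cultures, so p-values and intervals measure the spread between these libraries, which may be technical.

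The spliceosome removes introns from pre-mRNA. Its snRNPs are particles of a small nuclear RNA, a ring of Sm proteins and particle-specific proteins. The SF3A and SF3B complexes are part of the U2 snRNP and hold it on the branch site of the intron, PRPF factors build the U4/U6.U5 tri-snRNP and drive the catalytic steps, and SR proteins bind exons and recruit the machinery through domains rich in arginine and serine. In mouse embryonic stem cells, loss of spliceosome components is known to switch on genes of the 2-cell embryo, and SR genes are known to limit their own output through transcripts that are destroyed by nonsense-mediated decay. Pwp1 encodes a WD-repeat protein known from ribosomal RNA synthesis and chromatin.

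Pwp1 was at 16.1 and 16.9 TPM (the authors' length-scaled measure of transcript share) in the siPwp1 libraries, against 91.4 and 167 TPM in the siControl libraries. The means were 16.5 ± 0.559 TPM in siPwp1 and 129 ± 53.5 TPM in siControl (SD, n = 2 each), and the log2 fold change was -2.97 (SE 0.33, edgeR adjusted p = 0.22, DESeq2 adjusted p = 1.47e-12). Depth ranged from 28981358 to 48765229 expected counts per library. Of 10 morula and blastomere markers, 0 were at 0 in all libraries. Pou5f1 was at 54.2 and 53.5 TPM in siPwp1 and 81.1 and 58.2 TPM in siControl. Nanog was at 110.8 and 155.3 TPM in siPwp1 and 229.8 and 165.3 TPM in siControl. Both were lower in siPwp1 without overlap (log2 fold change -0.30, SE 0.28, and -0.60, SE 0.30). Sox2 was scarce, at 0.34 and 0.11 TPM in siPwp1 and 3.66 and 0.1 TPM in siControl. Esrrb was at 2.82 and 5.25 TPM in siPwp1 and 4.66 and 5.93 TPM in siControl. Dppa3, the most abundant of these markers, was at 19572 and 25306 TPM in siPwp1 and 19845 and 22948 TPM in siControl (log2 fold change 0.04, SE 0.20). Tfap2c (0.03, SE 0.25), Klf5 (0.05, SE 0.26) and Tead4 (-0.26, SE 0.31) also overlapped between the groups. Gata3 was at 16.5 and 6.04 TPM in siPwp1 and 42.1 and 8.15 TPM in siControl. Cdx2 was at 3.1 and 0.5 TPM in siPwp1 and 8.04 and 1.21 TPM in siControl. Within each group both genes were higher in replicate 1 than in replicate 2, and siControl replicate 1 had the highest values. Of 8 cumulus and granulosa markers, Cyp19a1 and Ptx3 were at 0 in all libraries, and the list summed to 25.8 and 34.4 TPM in siPwp1 and 20.9 and 42.2 TPM in siControl. Blood and immune markers summed to 145.5 and 154 TPM in siPwp1 and 38.6 and 117 TPM in siControl, with Hbb-bs and Tyrobp of the 7 at 0 in all libraries, and 4 sperm markers reached at most 2.62 TPM. The part of these markers in the results below was not tested.

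No member was called changed in siPwp1 by edgeR, which called 0% of all genes tested. That test did not call Pwp1 itself either (edgeR adjusted p = 0.22). The estimates were close to 0 for nearly all members. Of the 44 members, 43 passed the filter on low counts, with Srsf12 left out. Their log2 fold changes, siPwp1 minus siControl, had a median of -0.04, against -0.001 for all 13585 genes tested. With Prpf40b set aside, they lay between -0.28 (Sf3a1) and 0.29 (Prpf3), which corresponds to 0.823-fold and 1.22-fold. In bulk RNA, less RNA per cell and fewer cells of a type cannot be told apart.

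edgeR's quasi-likelihood test, adjusted by the Benjamini-Hochberg method over all genes, called 0 members higher and 0 lower, and called 0% of all genes in each direction. At an unadjusted p under 0.05 there were also 0 members, against 2.66% of all genes, and DESeq2 called 0 members, against 0.324% of all genes. In the edgeR fit without siControl replicate 1, the median log2 fold change of the members was -0.0562. That fit takes its spread within groups from the siPwp1 pair alone and assumes that the lone siControl library varies alike. Its calls are therefore not given. An absolute log2 fold change over 1 was found for 0 members and 12.7% of all genes. For the 8557 more abundant genes set out below, the share was 2.84%. The 95% interval of the log2 fold change lay wholly between -1 and 1 for 35 of the 43 members, and for 25.8% of all genes. The members are abundant transcripts, with a median of 209.9 CPM (library-scaled counts, with TMM factors) against 9.99 CPM for all genes tested, and their median SE was 0.26, against 0.46. Among the 8557 genes with a mean at least that of the lowest member other than Prpf40b, 41% had such an interval. A change of 2-fold or more is thus outside the interval for those 35 members, while it remains inside it for Prpf19, Prpf3, Prpf39, Prpf40b, Prpf6, Sf3a2, Sf3b2 and Srsf4.

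**Figure D1:**
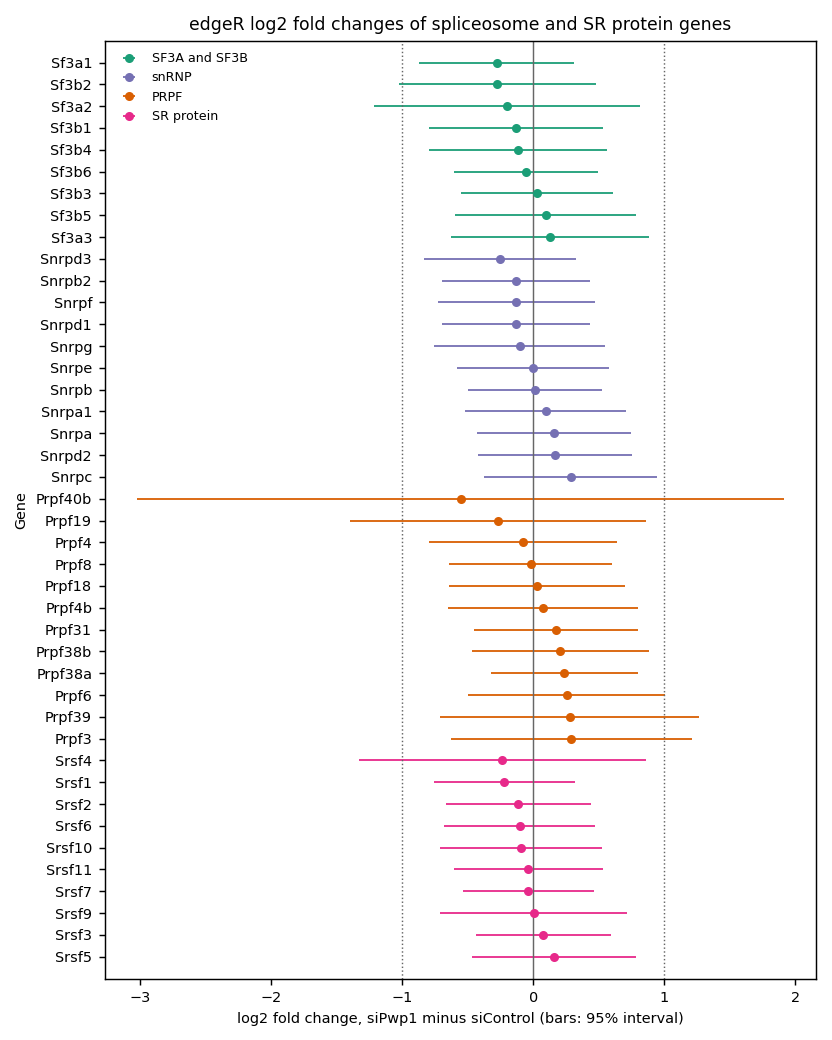
The edgeR log2 fold changes of 42 members, siPwp1 minus siControl, are shown each with its 95% interval, coloured by class, with dotted lines at -1 and 1. All 42 intervals drawn include 0, and 34 stay between the dotted lines; the interval of Prpf40b, from -3.02 to 1.91, is the widest.

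The CPM of a gene was termed separated where the lower of the siPwp1 libraries exceeded the higher of the siControl libraries, or the reverse. Separated members numbered 3 higher (Prpf38a, Prpf38b and Prpf6) and 4 lower (Prpf19, Sf3a1, Snrpd3 and Srsf1), of 43. Over all genes tested, 14.7% were separated higher and 14.1% lower, and over the 8557 more abundant genes 11% and 16%. The counts given for each class below stand beside these shares, and no difference from them was tested. The same members were separated in TPM. With a filter of 5 CPM in 2 libraries, whose scaling factors differ slightly, 6 members were separated higher.

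Summed over the 44 members, the level was 15827 and 15742 TPM in the siPwp1 libraries, against 15263 and 15518 TPM in the siControl libraries, or 1.58% and 1.57% of all TPM against 1.53% and 1.55%. Both siPwp1 sums were above both siControl sums, with means of 15784 ± 60.6 TPM in siPwp1 and 15390.3 ± 180.7 TPM in siControl (SD, n = 2 each) and a log2 ratio of 0.04. The two-sided exact permutation test gave p = 0.333, the smallest that 2 against 2 libraries allow. In summed TMM-scaled CPM the log2 ratio was -0.0008, so that the direction of this small difference depends on the scale.

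**Figure D2:**
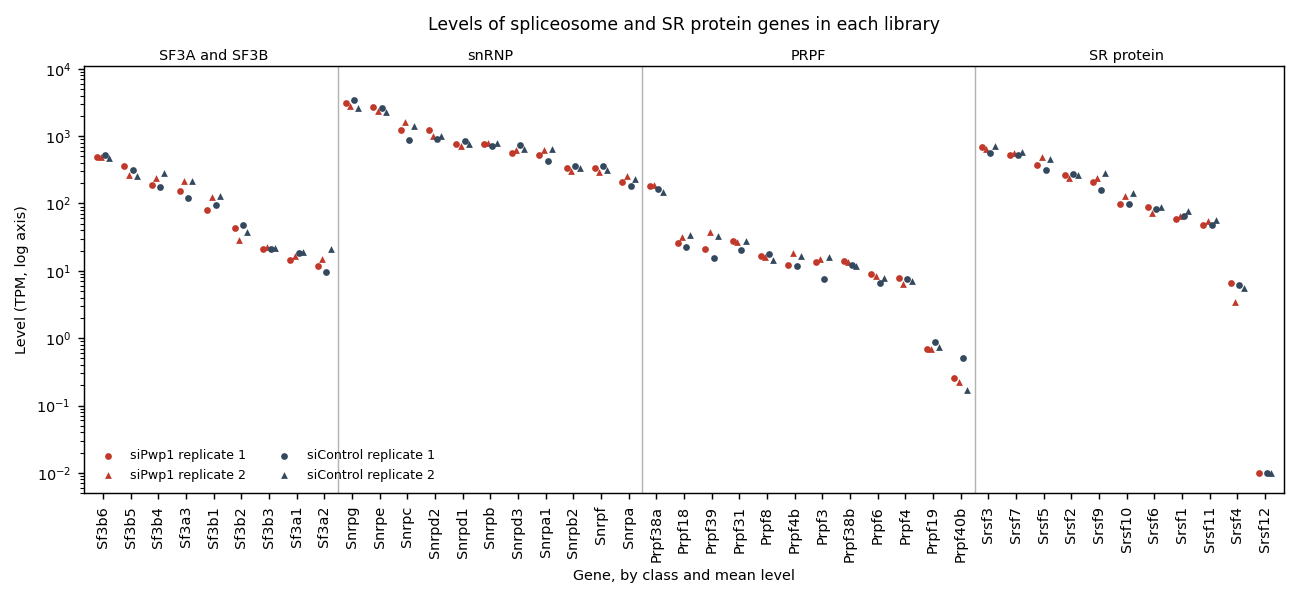
The TPM of 43 members in each library is plotted on a log axis, by class and mean level, with siPwp1 in red and siControl in dark blue. Levels span from 0.01 TPM (Srsf12, whose value of 0 in siPwp1 replicate 2 is not drawn) to 3471 TPM (Snrpg), while the 4 points of a gene mostly lie close together.

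The start regions of these genes were read from the RefSeq promoter table (GRCm38.p6, 250 bases before to 50 after each start), which held 38 of the 44 members. These regions were rich in CG dinucleotides, with a median of 24 per region, against 20 for genes tested and 7 for all promoters. The letters CCGGAAGT, the binding motif of ETS family transcription factors, occurred on either strand in 9 of the 38 members (23.7%), against 8.84% of genes tested and 4.31% of all genes in the table. Those 9 were Sf3a1, Sf3a3, Sf3b2, Snrpe, Prpf4b, Prpf6, Srsf4, Srsf5 and Srsf11. The TATA box letters TATAAA occurred in 10.5% of members and 9.18% of genes tested, and CCAAT in 39.5% and 43.5%. The core letters CGCATGCG of NRF1 occurred in Srsf7 and Srsf11 (5.26%, against 4.31% of genes tested), CTCGCGAG of BANP in Srsf4 and Srsf10 (5.26%, against 2.16%), and AAGATGGCG of YY1 in Prpf38b and Sf3a1 (5.26%, against 3.47%). All motifs were searched on both strands, and none contains another. A match of letters is a description of the sequence and not a binding site. The ETS-bearing region of the most abundant such member of each class is given 5′ to 3′ on the gene's strand, with the motif in capitals, ACTTCCGG being its reverse complement.
Sf3a3 (chr4:124714611-124714910, plus strand): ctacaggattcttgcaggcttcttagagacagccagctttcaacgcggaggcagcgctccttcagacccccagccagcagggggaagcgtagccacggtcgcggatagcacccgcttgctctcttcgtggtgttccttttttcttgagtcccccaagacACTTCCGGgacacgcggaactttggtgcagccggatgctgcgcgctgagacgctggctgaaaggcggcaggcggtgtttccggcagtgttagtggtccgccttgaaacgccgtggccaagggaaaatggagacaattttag
Snrpe (chr1:133610231-133610530, minus strand): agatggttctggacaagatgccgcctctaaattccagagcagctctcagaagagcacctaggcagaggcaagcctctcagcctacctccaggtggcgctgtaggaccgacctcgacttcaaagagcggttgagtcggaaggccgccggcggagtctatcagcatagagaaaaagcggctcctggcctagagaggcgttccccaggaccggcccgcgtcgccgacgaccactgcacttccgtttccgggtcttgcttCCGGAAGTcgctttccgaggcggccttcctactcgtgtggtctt
Prpf4b (chr13:34875279-34875578, plus strand): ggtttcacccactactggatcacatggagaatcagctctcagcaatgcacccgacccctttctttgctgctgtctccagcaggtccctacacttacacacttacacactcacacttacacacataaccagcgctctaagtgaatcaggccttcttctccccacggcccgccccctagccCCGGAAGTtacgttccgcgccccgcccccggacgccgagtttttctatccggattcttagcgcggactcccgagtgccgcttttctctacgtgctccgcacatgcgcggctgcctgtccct
Srsf5 (chr12:80945249-80945548, plus strand): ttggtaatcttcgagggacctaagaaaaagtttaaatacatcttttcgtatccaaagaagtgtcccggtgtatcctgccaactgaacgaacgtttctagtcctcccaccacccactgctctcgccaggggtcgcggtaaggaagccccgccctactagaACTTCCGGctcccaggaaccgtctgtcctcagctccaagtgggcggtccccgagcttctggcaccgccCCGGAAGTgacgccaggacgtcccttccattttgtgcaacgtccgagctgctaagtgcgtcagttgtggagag
Srsf5 carries the motif on both strands. None of these 4 genes was separated between the groups, and their values are given with their classes below.

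The SF3A and SF3B subunits of the U2 snRNP centred on a log2 fold change of -0.12 (median of 9 genes), and 1 was separated lower and 0 higher. Their summed level was 1357 and 1402 TPM in siPwp1 and 1315 and 1455 TPM in siControl, so that the siPwp1 sums lay inside the range of the siControl sums. Sf3a1, a scaffold of the SF3A complex on chromosome 11 (4160350 to 4182541, GRCm38), had the smallest unadjusted p of all members in edgeR, 0.295. It was at 14.7 and 16.5 TPM in siPwp1, against 18.3 and 19.3 TPM in siControl, with a log2 fold change of -0.28 (SE 0.25, 95% interval -0.87 to 0.31, edgeR adjusted p = 0.9998). The groups did not overlap for Sf3a1, but the difference is close to its standard error. The other SF3A subunits overlapped. Sf3a2 was at 11.8 and 15 TPM in siPwp1 and 9.63 and 21.1 TPM in siControl, and Sf3a3 at 154 and 212.5 TPM in siPwp1 and 120.1 and 213.8 TPM in siControl. For both, the siControl libraries differed from each other more than the groups did.

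Sf3b1, the large subunit that clasps the branch site and a frequent target of mutation in human leukaemia, was at 80.7 and 125 TPM in siPwp1, against 95.9 and 128 TPM in siControl (log2 fold change -0.13, SE 0.28). Sf3b2 was at 43.2 and 28.5 TPM in siPwp1, against 47.6 and 38.2 TPM in siControl, with a log2 fold change of -0.27 (SE 0.32, 95% interval -1.03 to 0.48). These groups overlapped for both genes. The small subunits were the most abundant of the class. Sf3b6 was at 486 and 482 TPM in siPwp1, against 519 and 470.5 TPM in siControl (log2 fold change -0.06, 95% interval -0.61 to 0.49). Sf3b5 was at 358 and 262 TPM in siPwp1, against 310.3 and 258 TPM in siControl (log2 fold change 0.09, 95% interval -0.60 to 0.79). Sf3b4, an RNA-binding subunit, and Sf3b3, a scaffold of repeated propeller domains, also overlapped, at 187.6 and 236.9 TPM in siPwp1 against 173 and 285 TPM in siControl, and at 20.8 and 22.8 TPM in siPwp1 against 20.8 and 21.7 TPM in siControl.

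The Snrp genes were the most abundant class. Their summed level was 11734 and 11396 TPM in siPwp1, against 11489 and 10992 TPM in siControl, and the 95% interval lay between -1 and 1 for 11 of 11 genes. The median log2 fold change was -0.0017, and 1 gene was separated lower and 0 higher. Among the proteins of the Sm ring, Snrpg was at 3122 and 2795 TPM in siPwp1, against 3471 and 2588 TPM in siControl (log2 fold change -0.10, SE 0.27). Snrpe was at 2667 and 2356 TPM in siPwp1, against 2594 and 2261 TPM in siControl (log2 fold change -0.0017, 95% interval -0.58 to 0.58). Both genes were lower in replicate 2 than in replicate 1 within each group, and the groups overlapped.

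Snrpd3 was the separated gene of the class, at 565 and 632 TPM in siPwp1 and 737 and 648 TPM in siControl (log2 fold change -0.26, SE 0.24, edgeR adjusted p = 0.9998). Its chromosome 10 locus (75517551 to 75537381) overlaps Gucd1 on the other strand, and if the libraries do not keep the strand, which the sources used here do not state, reads of the overlap cannot be assigned to one gene. Snrpd2, also of the ring, was at 1229.7 and 1009 TPM in siPwp1 and 919.7 and 1015 TPM in siControl (log2 fold change 0.17, SE 0.25). Snrpd1 was at 773 and 723 TPM in siPwp1 and 850.1 and 752 TPM in siControl (log2 fold change -0.13, SE 0.24). The ring proteins thus did not share a direction beyond their errors. Snrpb, which encodes SmB, was at 753 and 784 TPM in siPwp1 and 711 and 791 TPM in siControl, and Snrpf was at 335 and 296 TPM in siPwp1 and 357 and 319 TPM in siControl.

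Among the particle-specific Snrp genes Snrpc was the most abundant. Snrpc, a U1 protein that steadies the pairing with the 5′ splice site, was at 1216 and 1624 TPM in siPwp1, against 889.8 and 1406 TPM in siControl (log2 fold change 0.28, SE 0.28, 95% interval -0.37 to 0.94). Leaving out siControl replicate 1 gave 0.0233 for Snrpc, and leaving out siControl replicate 2 gave 0.57. The groups overlapped, and in each group replicate 2 was the higher library. Snrpa, the U1 protein that binds a loop of U1 RNA, was at 209 and 255 TPM in siPwp1 and 180.5 and 234 TPM in siControl. Of the U2 proteins, Snrpa1 was at 523 and 619 TPM in siPwp1 and 421 and 639.6 TPM in siControl. Its U2 partner Snrpb2 was at 339.8 and 304 TPM in siPwp1 and 358 and 338 TPM in siControl (log2 fold change -0.13, SE 0.24). Values of all of these genes overlapped between the groups.

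The PRPF factors were the least abundant class, with summed levels of 383 and 436 TPM in siPwp1 and 335 and 400.3 TPM in siControl, and an exact permutation p = 0.667. Their median log2 fold change was 0.08 over 13 genes, 8 above 0 and 5 below, with 3 separated higher and 1 separated lower. Among all genes tested, 14.7% were separated higher and 14.1% lower. Prpf38a, a factor of the tri-snRNP at activation of the spliceosome, was at 183 and 191 TPM in siPwp1, against 162 and 150.3 TPM in siControl (log2 fold change 0.24, SE 0.24, 95% interval -0.32 to 0.80). Its relative Prpf38b was at 14 and 13.7 TPM in siPwp1, against 12.1 and 11.7 TPM in siControl (log2 fold change 0.20, SE 0.28). Prpf6, which bridges the U5 and U4/U6 particles, was at 9.08 and 8.34 TPM in siPwp1, against 6.67 and 7.83 TPM in siControl (log2 fold change 0.25, SE 0.32). In these 3 genes the groups did not overlap, while the fold changes were at or under their standard errors. The Prpf6 locus overlaps Samd10 on the other strand, and 10 of the 44 members have such an overlap.

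Among other tri-snRNP proteins the groups overlapped. Prpf8, the largest protein of the spliceosome and the frame of its catalytic centre, was at 16.6 and 16 TPM in siPwp1 and 18 and 14.7 TPM in siControl, with a log2 fold change of -0.02 (95% interval -0.64 to 0.60). Prpf31, a U4 protein known from human retinitis pigmentosa, was at 27.7 and 27 TPM in siPwp1 and 20.7 and 27.6 TPM in siControl (log2 fold change 0.17, SE 0.26). With siControl replicate 1 left out the Prpf31 estimate was 0.0133, and with siControl replicate 2 left out it was 0.32. Prpf3 was at 13.8 and 14.7 TPM in siPwp1 and 7.50 and 15.8 TPM in siControl (log2 fold change 0.29, SE 0.39). The low siControl replicate 1 sets the Prpf3 estimate, which was -0.13 without that library. The U4/U6 protein Prpf4 was at 7.80 and 6.28 TPM in siPwp1 and 7.61 and 7.12 TPM in siControl, and the kinase Prpf4b at 12.2 and 18.2 TPM in siPwp1 and 12 and 16.7 TPM in siControl.

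Prpf39, related to a yeast U1 protein, was at 21 and 38.1 TPM in siPwp1 and 15.5 and 33.1 TPM in siControl, so that replicate 2 was above replicate 1 in both groups by more than the groups differed (log2 fold change 0.28, SE 0.42). Prpf40b was close to the limit of detection, at 0.26 and 0.22 TPM in siPwp1 and 0.51 and 0.17 TPM in siControl, from 18 to 43 counts per library. Prpf18, of the second catalytic step, was at 26.3 and 31.3 TPM in siPwp1 and 22.3 and 34 TPM in siControl. Prpf19, the ubiquitin ligase of the Prp19 complex, was at 0.68 and 0.69 TPM in siPwp1 and 0.89 and 0.74 TPM in siControl (log2 fold change -0.27, SE 0.48), from 117 to 201 counts. Its groups did not overlap, but its 95% interval ran from -1.40 to 0.86.

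The SR proteins centred on a log2 fold change of -0.07 (median of the 10 tested), and 1 was separated lower and 0 higher. Their summed levels were 2353 and 2507 TPM in siPwp1, inside the siControl range of 2123 and 2670.2 TPM. Srsf3, a small SR protein that links splicing to mRNA export, was at 687 and 654 TPM in siPwp1 and 557 and 707 TPM in siControl (log2 fold change 0.08, 95% interval -0.44 to 0.59). Srsf7, which differs from it by a zinc knuckle, was at 523 and 559.9 TPM in siPwp1 and 519 and 587 TPM in siControl (log2 fold change -0.04, 95% interval -0.54 to 0.46). These were the most abundant SR transcripts, and their groups overlapped. Srsf1, the founding member of the family, on chromosome 11 (88047373 to 88053755), was at 58.5 and 66 TPM in siPwp1, against 66.1 and 78.1 TPM in siControl. Its log2 fold change was -0.22 (SE 0.23, 95% interval -0.76 to 0.32, edgeR adjusted p = 0.9998). Its groups were set apart by a gap of less than 0.1 TPM between the nearest libraries.

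The other SR genes overlapped between the groups. Srsf9, the closest relative of Srsf1, was at 208 and 237 TPM in siPwp1 and 159 and 283 TPM in siControl, and Srsf2, which binds exonic enhancers, at 266 and 239 TPM in siPwp1 and 277 and 263.5 TPM in siControl. Among the SR proteins with a second RNA-recognition motif, Srsf5 was at 369 and 491 TPM in siPwp1 and 312 and 456 TPM in siControl, and Srsf6 at 88.1 and 73 TPM in siPwp1 and 82 and 90.2 TPM in siControl. Srsf4, of the same subgroup, was at 6.67 and 3.41 TPM in siPwp1 and 6.22 and 5.59 TPM in siControl. Its siPwp1 replicate 2 was the lowest library, and the interval of its log2 fold change ran from -1.33 to 0.86. Srsf10, known as a splicing repressor when dephosphorylated, was at 99.5 and 129 TPM in siPwp1 and 97.4 and 144 TPM in siControl, and Srsf11 at 47.4 and 55.5 TPM in siPwp1 and 48.6 and 56.2 TPM in siControl. Srsf12 had 0 to 2 counts per library and was not tested.

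Gene-level files do not give single isoforms, but the deposited transcript length of a gene is weighted by the abundance of its isoforms, so it moves when their shares move. Of the 10 members with several listed transcripts, 7 are SR genes. The weighted length was longer in both siPwp1 libraries than in both siControl libraries for 5 of the 10 (Snrpa, Srsf1, Srsf5, Srsf7 and Srsf11) and shorter for 0, where 11.2% of the 4008 such genes tested were longer and 10.6% shorter. Srsf7 had weighted lengths of 2305 and 2313 bases in siPwp1, against 2297 and 2300.2 bases in siControl. Snrpa had 1345 and 1352 bases in siPwp1, against 1339.8 and 1342 bases in siControl. These shifts were under 1% of the length, and for Srsf5 a single library stood out, with 1553 and 1543 bases in siPwp1 and 1542 and 1542 bases in siControl. The largest spread was that of Srsf10, at 2936 and 2861 bases in siPwp1 and 2957 and 2869 bases in siControl, where it followed the replicate number and not the siRNA. GENCODE lists a transcript marked for nonsense-mediated decay for 9 of the 11 SR genes and for 21 of the 44 members. These transcripts were not quantified separately here.

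The 2 libraries of a group differed from each other by more than the group means did for most members, as for most genes. For 38 of the 43 members tested (88.4%), the group difference in mean log2 TPM was smaller than the larger of the 2 replicate differences, and for 26 (60.5%) it was smaller than both. The same held for 82% and 49% of all genes tested, and a mean of 2 libraries varies less than a single one. The median absolute difference was 0.19 between the siPwp1 libraries, 0.27 between the siControl libraries and 0.11 between the groups, all in log2 TPM. All genes tested had 0.47, 0.56 and 0.31 for the same 3 quantities, and the 8557 more abundant genes had 0.34, 0.43 and 0.22. Replicate 2 was above replicate 1 in both groups for 21 members (48.8%) and below it in both for 14 (32.6%), against 37% and 29.1% of all genes tested and 43.2% and 28.5% of the more abundant genes. Prpf39 (0.86 in siPwp1 and 1.09 in siControl) and Sf3a3 (0.46 in siPwp1 and 0.83 in siControl) were in the first set, and Sf3b2 (-0.60 in siPwp1 and -0.32 in siControl) and Sf3b5 (-0.45 in siPwp1 and -0.27 in siControl) in the second. The cause of this shared order was not tested.

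**Figure D3:**
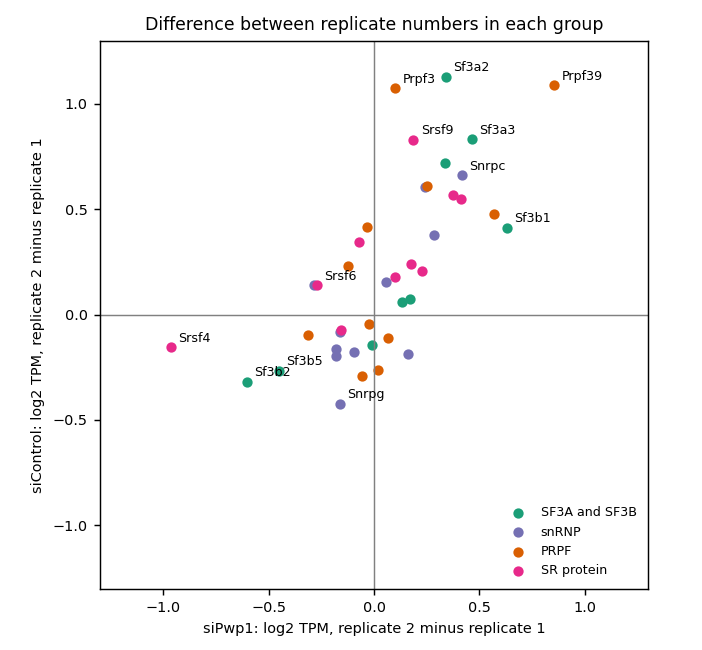
For 41 members tested, Prpf40b not among them, the log2 TPM of replicate 2 minus replicate 1 is plotted in siPwp1 (horizontal axis) and in siControl (vertical axis), coloured by class. Most points lie in the upper right or lower left, where the replicate numbers differ the same way in both groups, with Prpf39 at the far upper right and Sf3b2 at the lower left.

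Other splicing genes outside the rule were also not called, and their estimates ran wider. In 11 lists holding 149 genes, 145 were tested, and edgeR called 0, with 0 at an unadjusted p under 0.05 and 0 called by DESeq2. Their median log2 fold change was 0.01, with 18 separated higher and 21 lower, and the list medians ran from -0.21 (hnRNP proteins) to 0.13 (minor spliceosome proteins). Beside the Sm ring, the related LSm ring had 2 of 10 genes separated higher and 2 lower, and proteins that assemble and methylate Sm proteins had 0 of 17 higher and 4 lower. SR kinases, transporters and coactivators had 4 of 16 separated higher and 0 lower. Over all genes tested the shares were 14.7% higher and 14.1% lower, and no difference of a list from these shares was tested. Of the SR kinases, Clk2, which phosphorylates SR proteins, was at 13.6 and 15.8 TPM in siPwp1, against 10.4 and 9.22 TPM in siControl (log2 fold change 0.55, SE 0.32). Snrnp200, the helicase that unwinds U4 from U6, was at 11.6 and 10.2 TPM in siPwp1, against 15.8 and 12.6 TPM in siControl (log2 fold change -0.40, SE 0.28).

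The hnRNP proteins, which often oppose SR proteins at splice sites, had 17 of 23 genes below 0, with 8 separated lower and 3 separated higher. Over all genes tested 50.1% were below 0, and over the 8557 more abundant genes described above 54.9% were below 0 and 16% were separated lower. Hnrnpd, known for binding AU-rich RNA, was at 16.5 and 14.8 TPM in siPwp1, against 26.3 and 20.4 TPM in siControl (log2 fold change -0.59, SE 0.27). Hnrnpa2b1 was at 281 and 269.7 TPM in siPwp1, against 178 and 247 TPM in siControl (log2 fold change 0.37, SE 0.24). In both the groups did not overlap, and neither passed the test. The tri-snRNP-related gene Rp9 had the largest fold change of these lists, at 33.3 and 23.7 TPM in siPwp1, against 17.7 and 14.2 TPM in siControl (log2 fold change 0.81, SE 0.37).

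The 2-cell genes, which splicing loss is known to switch on in stem cells, had a higher median fold change than the splicing genes. This list was chosen with earlier results of these data known, so its direction is a description and not a test. Its genes were scarce, with a median of 3.5 CPM and a median SE of 0.93. Genes low in siControl, such as Usp17lc at 0.26 and 0.37 TPM, can pass the count filter through the siPwp1 libraries alone. Over the 21 of 24 listed genes that were present in the data, the sums were 181 and 259 TPM in siPwp1, against 17.5 and 48.9 TPM in siControl. The median log2 fold change of these genes was 2.54. Of the 21, 16 were separated higher and 0 lower, edgeR called 0 and DESeq2 called 6, while the unadjusted edgeR p was under 0.05 for 14. The shares of all genes tested were 14.7% separated higher, 0.324% called by DESeq2 and 2.66% at that unadjusted p. In these libraries the summed TPM of the listed 2-cell genes was thus several-fold higher in siPwp1. The summed TPM of the spliceosome and SR protein genes differed by 0.04 on the log2 scale, and their summed TMM-scaled CPM by -0.0008. That sum is mostly Snrp transcripts, at a mean of 11565 of 15784 TPM in siPwp1, against 409.8 TPM for the PRPF class. It would show little of a change in a less abundant member, and the intervals of 8 members reach a 2-fold change. Levels of transcripts do not measure splicing itself, protein amounts or protein activity.

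**Figure D4:**
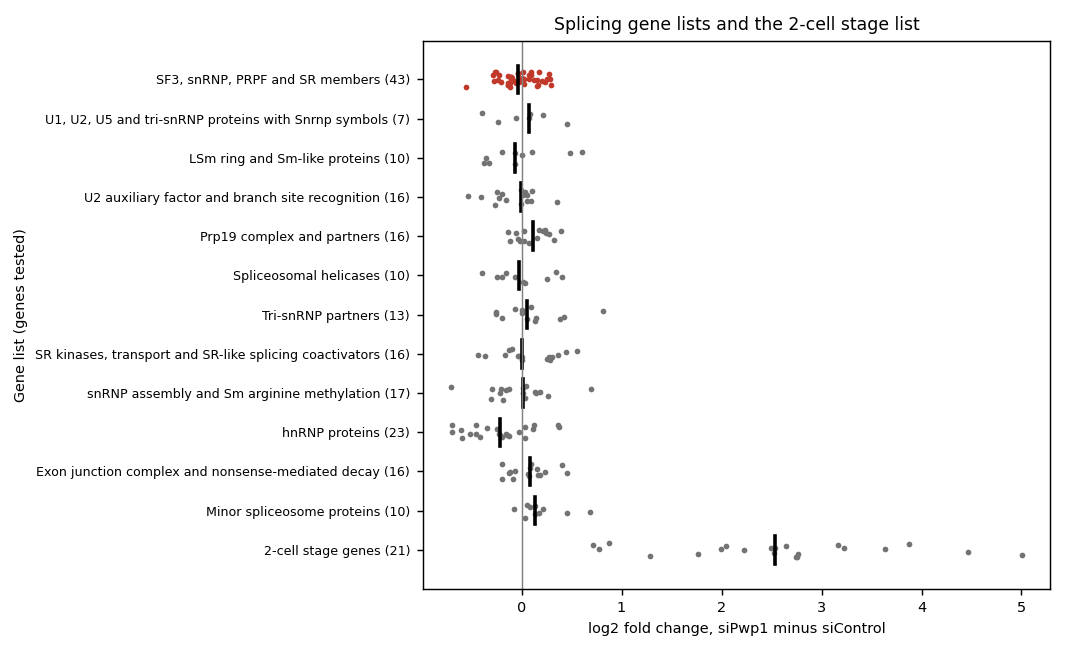
Each point is the edgeR log2 fold change, siPwp1 minus siControl, of a gene in a list, with the list median as a black bar and the number of genes tested in brackets. The 43 members (red) and the 11 other splicing lists centre between -0.21 and 0.13, while the 21 genes of the 2-cell list lie at 0.72 or higher.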

How the data were processed

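RNA was measured in 4 libraries of mouse morulae, 2 siPwp1 and 2 siControl, grouped by the sample titles. Per the labels, a SMART-Seq kit was used on polyadenylated RNA. The deposited expected counts are estimates of reads per gene, not normalized, per the file headers. The deposited TPM were scaled by the authors within each library with effective gene length, per the file headers. The deposited FPKM were not used. The submitters' processing notes name STAR 2.7.10, RSEM 1.3.3 and mm10. Annotation release, trimming and strandedness: not given in the sources used here. RSEM counts were whole within 0.005 in every library for all members except Prpf39 and Srsf4. Reads shared with copies outside the annotation would not show in this.

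Expected counts were rounded and tested with edgeR 4.0.16 (R 4.3.3, quasi-likelihood, group as the single term, TMM scaling, filterByExpr with a minimum count of 10), which left 13585 genes. Two-sided p-values had Benjamini-Hochberg adjustment, with calls at 0.05. Each SE was taken as |log2 fold change| divided by the root of F, and 95% intervals use the t distribution with edgeR's total degrees of freedom, of which 4.84 are prior. Class sums had exact permutation tests. DESeq2 1.42.0 and limma 3.58.1 were alternatives, and the edgeR step was tested on simulated data. A count of 3 corresponds to 0.0594 to 0.104 CPM, for counting error only. The genes given a fold change and test in every setting were the 8 members per direction with the smallest unadjusted p and the 2 most abundant members of each class. Values of all other members were added after they were seen. Positions are from GENCODE M21 on GRCm38, the assembly mm10 names. The members and lists were chosen with earlier results of these data known. The values of 1 member are not reported here, though it is included in counts, sums and medians.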

Additional observations from a re-analysis of the deposited data

How the results depend on the processing

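No member was called in either direction under any alternative run on all 4 libraries. These were no filter, a filter of 5 CPM in 2 libraries, DESeq2 size factors, DESeq2, the replicate number as a block, a threshold of 0.1, and limma on log2(TPM + 1) or log2(TPM + 0.1). Few genes of any kind were called. Over all genes the stricter filter, DESeq2 size factors and limma on log2(TPM + 1) called 0. Limma on log2(TPM + 0.1) called 2 higher and 0 lower of 9754. Without a filter there were 99 higher and 7 lower of 18613, and with DESeq2 42 higher and 2 lower of 13585. No difference of the members from these counts was tested. With the replicate number as a block the members called were 0 higher and 0 lower, while all genes had 71 higher and 9 lower. Same-numbered libraries deviated together (correlation 0.32 over all genes and 0.66 over members), but with 2 pairs and no label to tie them this does not establish a pairing.

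With the stricter filter, separated members numbered 6 higher, and the median log2 fold change was 0.0169. Leaving out 1 library gave 9 to 18 members separated higher and 9 to 17 lower, since 1 library is separated from 2 more easily. Without 1 library the median ran from -0.0562 to 0.0152, and the log2 ratio of summed SR protein TPM from -0.14 to 0.19, highest without siControl replicate 2. In summed TMM-scaled CPM the ratio over all members was -0.0008, against 0.04 in TPM.

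Of 236 values over 22 genes and 11 alternatives, 22 changed sign and 0 gained a call. Snrpe, at -0.0017, became 0.037 with the stricter filter, 0.0057 with DESeq2 size factors and with DESeq2, 0.0019 with the block, and 0.0499 with limma at either pseudocount, and Srsf7 became 0.0011 with the stricter filter. Without 1 library the estimates that changed sign ranged from -0.13 to 0.84 for Prpf3, -0.18 to 0.84 for Prpf39, -1.17 to 0.46 for Prpf40b, -0.64 to 0.0161 for Sf3b2 and -0.19 to 0.33 for Sf3b5. They ranged from -0.19 to 0.0636 for Sf3b6, -0.28 to 0.0111 for Snrpd1, -0.0292 to 0.34 for Snrpd2, -0.17 to 0.16 for Snrpe, -0.37 to 0.19 for Snrpg and -0.0486 to 0.19 for Srsf3. The cause was not tested. Estimates that kept their sign moved too, with ranges of 0.0233 to 0.57 for Snrpc, 0.0133 to 0.32 for Prpf31, -0.45 to -0.0879 for Prpf19, -0.25 to -0.0289 for Snrpb2, -0.42 to -0.11 for Snrpd3 and 0.12 to 0.34 for Prpf38a. The lowest counts were those of Srsf12 (0 to 2), Prpf40b (18 to 43) and Prpf19 (117 to 201).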

Other observations

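The Prpf19 transcript level stood far below those of the other genes of its complex. Its mean of 0.75 TPM compares with 9.58 to 410.9 TPM (median 69.7 TPM) for 16 genes of the Prp19 complex and its partners, of which 0 lay below it. Cdc5l, a core partner, was at 146 and 156 TPM in siPwp1 and 159 and 152 TPM in siControl, and Plrg1 was at 64.9 and 83.9 TPM in siPwp1 and 49.1 and 81.9 TPM in siControl. The weighted transcript length deposited for Prpf19 was 6162 to 6174 bases in the 4 libraries, while GENCODE M21 lists protein-coding transcripts of 2134 and 6035 bases for it. The deposited length exceeds both, so a transcript longer than either was among those the authors counted. The low value was present in both groups. Whether reads of the shorter coding transcript were counted was not tested, so the value may not be the gene's full level.

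The order of levels within the Snrp genes depends in part on how short transcripts are scaled. Snrpg is listed at 393 bases with an effective length of 136.6 to 144.3 bases, and Snrpe at 492 bases with 227 to 237 bases. By TPM, Snrpg ranked 1 and Snrpe 2 among the members. By CPM per kilobase of full length, an alternative chosen after seeing the data, Snrpe ranked 1 at 1140 and Snrpg 2 at 1049. Snrpd2 moved to rank 7 by full length, against rank 4 by TPM, and Srsf3 to rank 4, against rank 7. Fold changes between groups are little touched by this, since the lengths are nearly the same in all libraries.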
